A study of Mus musculus with 16 samples.

Results

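Fcgr1, Fcgr3, Fcgr4 and Fcgr2b, which encode mouse Fc gamma receptors, and Fcer1g, which encodes the signaling chain shared by the activating ones, were examined in bulk RNA-seq libraries of mouse knee joint cells. These 5 genes were chosen by name, all 5 were listed among the 13733 genes of the table, and Fcgr1 was listed 2 times with equal values and counted once. The 16 libraries came from 16 male mice in 4 groups of 4. WT mice were C57BL/6J and were uninjured (WT D0) or injured (WT D7). Trem2-/- mice, of strain C57BL/6J-Trem2em2Adiuj/J, carry a germline knockout of Trem2, which encodes a lipid-sensing receptor of macrophages, and were likewise uninjured (Trem2-/- D0) or injured (Trem2-/- D7). Injury was tibial compression, an overload that ruptures the anterior cruciate ligament, at 10 weeks of age, and D7 joints were taken 7 days later. The age entry of the sample labels was 16 weeks, which conflicts with injury at 10 weeks and sampling 7 days later. Diabetic mice and homogenized whole joints stand in another field of the sample labels, where the methods describe cells released by collagenase. Only genotype and injury were used for grouping. Whether the cells were enriched for leukocytes was not stated.

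Fc gamma receptors bind the constant part of IgG antibodies on immune complexes and on coated cells. Fcgr1 (CD64) is the high-affinity receptor of monocytes and macrophages, Fcgr3 (CD16) is a low-affinity receptor of macrophages, neutrophils and NK cells, and Fcgr4 is an intermediate-affinity receptor of neutrophils and monocytes. These 3 activating receptors need the Fcer1g chain (FcRγ), whose activation motif recruits the kinase Syk. Fcgr2b (CD32b) is the inhibitory receptor of B cells and myeloid cells, and it recruits the phosphatase encoded by Inpp5d. In joints, immune complexes that engage these receptors are best known from antibody-driven arthritis.

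In the GENCODE M21 annotation of GRCm38, Fcgr2b (chr1:170958617-170976547, minus strand), Fcgr4 (chr1:171018920-171029761, plus strand) and Fcgr3 (chr1:171051174-171064935, minus strand) lie next to each other within 106 kb. Fcer1g (chr1:171229572-171234365, minus strand) lies on the same chromosome, beyond 7 other genes that include Sdhc and Apoa2. Fcgr1 (chr3:96282909-96293969, minus strand) stands apart on chromosome 3. Of all stretches of 75 bases in the exons of Fcgr3, 5.42% also occur in Fcgr2b, and 2.70% of those of Fcgr2b occur in another gene, so a small part of their reads could be assigned to either receptor. None of the stretches of Fcgr1, Fcgr4 or Fcer1g occurs elsewhere in annotated exons. Exons of Fcgr2b overlap the antisense gene Gm38204 over 155 bases, and the strand setting of the counting was not stated.

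RefSeq promoter sequences (GRCm38.p6) were found for all 5 genes. The 250 bases before the start sites of the 3 activating receptors and of Fcer1g are shown, a choice made after the values were seen. Fcgr1 followed another pattern across the mice than the others shown, and any part of promoter sequence in that pattern was not tested. Capitals mark matches to the Ets core GAGGAA, read on either strand, and to the GAS motif TTCNNNGAA. Fcgr1 spans chr3:96293970-96294219 (minus strand), Fcgr3 chr1:171059404-171059653 (minus strand), Fcgr4 chr1:171018676-171018925 (plus strand) and Fcer1g chr1:171234350-171234599 (minus strand), each printed 5′ to 3′ toward the start site.
Fcgr1: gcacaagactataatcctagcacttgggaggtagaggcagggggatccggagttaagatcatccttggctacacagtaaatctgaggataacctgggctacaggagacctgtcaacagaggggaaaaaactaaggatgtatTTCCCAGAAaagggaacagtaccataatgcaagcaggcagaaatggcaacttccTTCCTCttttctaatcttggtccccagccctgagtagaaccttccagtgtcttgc
Fcgr3: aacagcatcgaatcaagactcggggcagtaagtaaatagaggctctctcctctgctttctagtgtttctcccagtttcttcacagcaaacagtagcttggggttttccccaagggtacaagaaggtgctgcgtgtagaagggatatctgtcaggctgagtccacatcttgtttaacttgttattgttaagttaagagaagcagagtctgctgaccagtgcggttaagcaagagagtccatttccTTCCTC
Fcgr4: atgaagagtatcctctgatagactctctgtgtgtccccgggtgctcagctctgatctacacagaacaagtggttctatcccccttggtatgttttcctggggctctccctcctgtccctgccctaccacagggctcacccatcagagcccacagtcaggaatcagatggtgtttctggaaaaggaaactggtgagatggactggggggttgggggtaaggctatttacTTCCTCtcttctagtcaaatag
Fcer1g: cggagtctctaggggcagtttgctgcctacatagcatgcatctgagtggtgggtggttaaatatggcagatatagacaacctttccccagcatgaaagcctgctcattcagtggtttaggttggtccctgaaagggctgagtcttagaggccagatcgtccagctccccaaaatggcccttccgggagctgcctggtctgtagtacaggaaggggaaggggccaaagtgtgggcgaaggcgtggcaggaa
In windows from 250 bases before to 50 bases after each start, the Ets core occurred at -55 in Fcgr1, at -6 in Fcgr3 and at -22 in Fcgr4. For a second RefSeq start site of Fcgr3, not printed, the match was at -15. The printed Fcgr3 window lies inside the GENCODE span of the gene. Each match was read as TTCCTC on the strand of the gene, and the Ets core did not occur in the windows of Fcgr2b and Fcer1g. A GAS match, a STAT-type motif, occurred only in Fcgr1, at -109. The motifs did not overlap, and a match describes letters and not a bound site. Both motifs are common. The Ets core was found in 28.3% of 27025 promoters of the same length and the GAS motif in 8.47%.

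Reads per library ranged from 11567073 to 32867818, and reads on any of the 5 genes from 40 to 4996, so that even the lowest gene stood above the 0.101 to 0.250 CPM that 3 reads represent. Values are given as CPM after TMM normalization, that is, reads of a gene relative to the effective size of its library. Trem2 itself had a mean of 16.8 CPM at WT D7 and 4.27 at Trem2-/- D7 with no overlap (limma adjusted p = 0.0503), and of 4.56 at WT D0 and 1.80 at Trem2-/- D0, where the ranges of 2.51 to 5.61 and 0.948 to 2.68 CPM met. No leukocyte, macrophage, neutrophil or stromal marker was at 0 in any library.

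Per kb of exon, the order of the 5 genes was nearly the same in every mouse. On this scale Fcer1g was the highest and Fcgr3 the next in 16 of 16 libraries, Fcgr1 was the lowest in 16, and Fcgr4 stood above Fcgr2b in 14. The length joins the exons of all annotated transcripts, 5790 bases for Fcgr2b and 1256 for Fcgr4. In CPM, Fcgr4 to Fcgr2b was at most 0.699 in the 16 libraries, so the order and the shares depend on this length. At WT D0 the levels per length were 222 ± 66.2 CPM per kb for Fcer1g, 101 ± 26.9 for Fcgr3, 17.4 ± 5.32 for Fcgr4, 8.72 ± 2.78 for Fcgr2b and 1.23 ± 0.234 for Fcgr1 (SD, n = 4). Fcgr3 made up 76.2% to 78.9% of the receptor transcripts on this per-length scale in the means of the 4 groups. Over the 16 libraries, Fcgr4 had the widest range, 7.86-fold from lowest to highest. The range was 5.0-fold for Fcer1g, 4.97-fold for Fcgr3, 2.99-fold for Fcgr2b and 2.38-fold for Fcgr1. Levels of this kind in bulk RNA cannot separate fewer cells of a type from less RNA per cell.

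**Figure D1:**
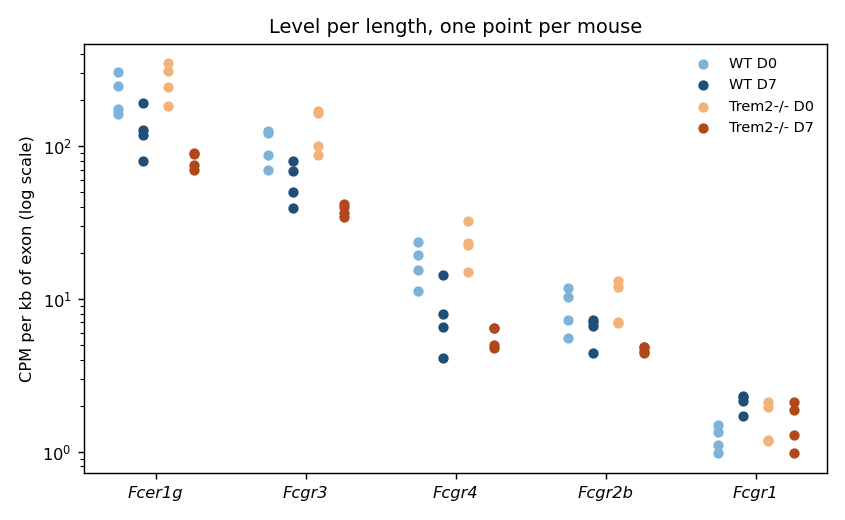
Level of each gene per kb of exon (CPM per kb, log scale), with a point for each of the 16 mice and colors for the 4 groups. Fcer1g lies at the top and Fcgr1 at the bottom in every mouse, and the range of Fcgr2b lies within that of Fcgr4.

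Fcgr1, the high-affinity receptor, rose after injury in WT joints and was not called in Trem2-/- joints. Its values were 2.87, 2.53, 3.88 and 3.49 CPM in the WT D0 mice and 5.92, 6.00, 5.55 and 4.45 CPM in the WT D7 mice. All 4 injured WT mice lay above all 4 uninjured ones. The log2 fold change was 0.63 (SE 0.21, limma adjusted p = 0.0344), or 1.72-fold between means, and the exact permutation p was 0.0286, the smallest that 4 against 4 mice allow. Without Trem2, Fcgr1 was at 5.44, 3.03, 5.07 and 3.09 CPM at D0 and at 2.52, 4.82, 3.30 and 5.50 CPM at D7. These values overlapped almost entirely and fell into a low and a high pair on each day. The log2 fold change was -0.04 (SE 0.21, limma adjusted p = 0.878), and its sign turned when any of 4 single mice was left out.

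Fcgr3, the most abundant receptor, fell with injury in both genotypes. It was at 121, 218, 210 and 152 CPM in WT D0 mice and at 68.5, 86.5, 138 and 119 CPM in WT D7 mice. The WT groups overlapped, with 3 of 4 injured mice below all uninjured ones (log2 fold change -0.77, SE 0.25, limma adjusted p = 0.0340, exact permutation p = 0.0571). The Trem2-/- mice had 295, 175, 285 and 153 CPM at D0 and 63.3, 59.2, 72.2 and 69.5 CPM at D7. Every injured Trem2-/- mouse lay below every uninjured one, and the mean was 3.44-fold lower (log2 fold change -1.71, SE 0.25, limma adjusted p = 8.09e-05, exact permutation p = 0.0286).

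Fcgr4, the receptor of neutrophils and monocytes, had the largest drop of the 5 genes in both genotypes. It was at 19.5, 24.3, 29.7 and 14.1 CPM in WT D0 mice and at 5.15, 8.27, 17.9 and 9.92 CPM in WT D7 mice. The third WT D7 mouse overlapped the uninjured range, and the log2 fold change was -1.09 (SE 0.30, limma adjusted p = 0.0164, exact permutation p = 0.0571). The Trem2-/- mice were at 40.5, 28.2, 28.9 and 18.8 CPM at D0 and at 5.95, 6.27, 8.12 and 8.09 CPM at D7. The days did not overlap there, and the mean was 4.09-fold lower at D7 (log2 fold change -1.85, SE 0.30, limma adjusted p = 0.000167).

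Fcgr2b, the inhibitory receptor, fell with injury in Trem2-/- mice, and its fall in WT mice did not pass the test. It was at 32.2, 67.7, 59.6 and 42.4 CPM in WT D0 mice and at 40.6, 42.0, 38.7 and 25.5 CPM in WT D7 mice. The WT groups overlapped (log2 fold change -0.42, SE 0.24, limma adjusted p = 0.199, exact permutation p = 0.200). Without the first WT D0 mouse, the lowest of its group, the log2 fold change was -0.61 and passed the call rule. In Trem2-/- mice the values were 69.2, 40.3, 76.3 and 41.0 CPM at D0 and 26.5, 25.7, 28.0 and 28.2 CPM at D7. The D7 mice all lay below the D0 mice, with a log2 fold change of -0.98 (SE 0.24, limma adjusted p = 0.00347).

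Fcer1g, the shared chain, followed Fcgr3 and Fcgr4. It was at 141, 215, 266 and 153 CPM in WT D0 mice and at 69.8, 103, 168 and 112 CPM in WT D7 mice. The third WT D7 mouse overlapped the uninjured range (log2 fold change -0.79, SE 0.26, limma adjusted p = 0.0334, exact permutation p = 0.0857). In Trem2-/- mice it was at 303, 214, 270 and 160 CPM at D0 and at 60.7, 65.9, 78.8 and 77.3 CPM at D7. Again the 2 days did not overlap in Trem2-/- mice, and the mean was 3.35-fold lower at D7 (log2 fold change -1.70, SE 0.26, limma adjusted p = 9.76e-05).

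**Figure D2:**
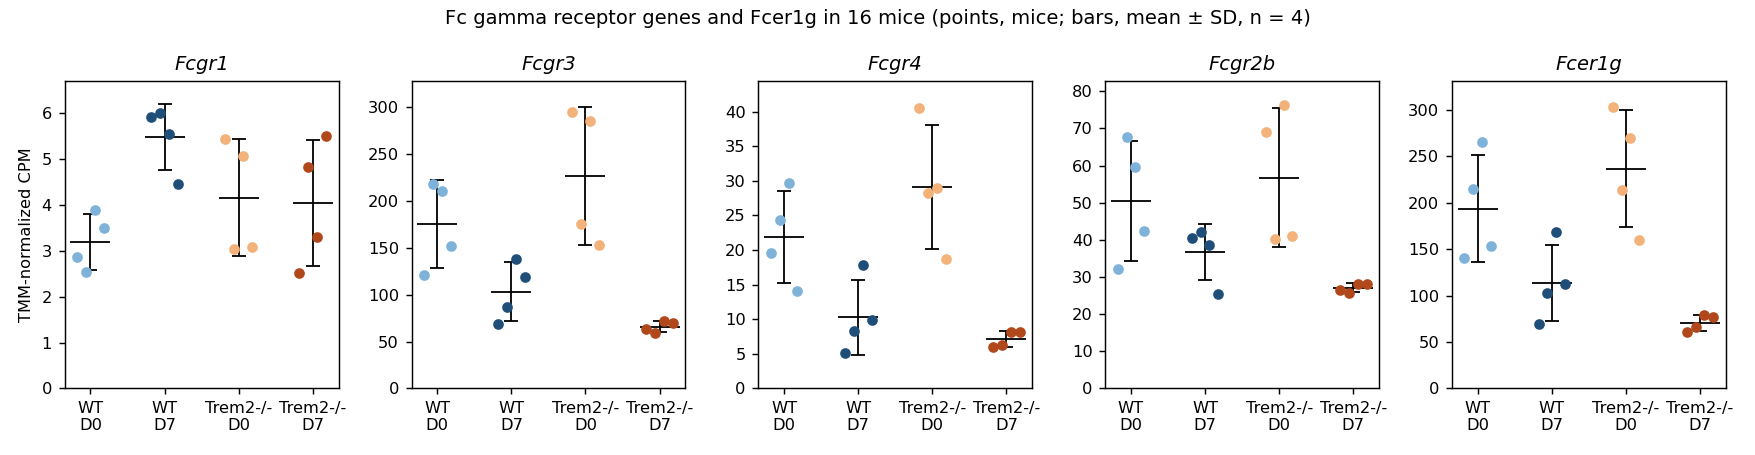
TMM-normalized CPM of Fcgr1, Fcgr3, Fcgr4, Fcgr2b and Fcer1g, each on its own linear axis from 0, with points for the 4 mice of each group and bars for the mean ± SD. The Trem2-/- D7 mice are tightly grouped and low for 4 genes, while Fcgr1 is highest in the WT D7 mice.

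Counted by the rule of the study's methods, an unadjusted p under 0.05 with a log2 fold change beyond 0.32 in either direction, injury in WT mice called 1 of the 5 genes higher and 3 lower, against 19.3% of all 13173 tested genes called higher and 18.2% called lower. The same 4 calls passed with an adjusted p under 0.05. Injury of Trem2-/- mice called 4 of the 5 lower and 0 higher, and the 4 passed adjustment, against 27.9% of all genes lower and 26.5% higher. Groups without overlap were seen for 1 gene higher and 0 lower in WT mice, where 12.9% and 9.34% of all genes had them. With injury of Trem2-/- mice they were seen for 4 genes lower and 0 higher, against 26.3% and 26.1%. Injury moved a large part of all genes, so that a call for any single gene was common, and the median log2 fold change over all tested genes was -0.04 in both genotypes. No test was run on the set of 5.

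Between injured mice the means of all 5 genes were lower in the Trem2-/- group, and 2 genes, Fcgr3 and Fcer1g, were called lower. Fcgr3 had a mean of 66.0 ± 5.89 CPM in Trem2-/- against 103 ± 31.5 in WT mice (log2 fold change -0.59, SE 0.25). Fcer1g had 70.7 ± 8.83 against 113 ± 40.9 CPM (log2 fold change -0.61, SE 0.26). The unadjusted limma p-values were 0.0338 and 0.0309, the adjusted ones 0.631 and 0.627, and the exact permutation p was 0.0857 for each. In either gene 2 of the 4 Trem2-/- mice lay below all WT mice. The calls were 2 of 5 lower and 0 higher, against 4.53% and 1.18% of all tested genes, and 0 passed adjustment. For 0 of the 5 genes were the genotypes without overlap, in either direction, against 4.78% of all genes lower and 3.55% higher in Trem2-/-.

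The other 3 genes were not called at D7 in the main fit, which used limma on log2(CPM + 1). The log2 fold change of Fcgr1 was -0.40 (SE 0.21, limma adjusted p = 0.720), that of Fcgr2b -0.40 (SE 0.24, adjusted p = 0.773) and that of Fcgr4 -0.37 (SE 0.30, adjusted p = 0.824). With voom on the recovered reads, the method that the study names, Fcgr1 was called as well. The study reported Fcgr1 and Fcgr3 among the genes significantly lower in Trem2-/- mice at D7. In the main fit, the calls of Fcgr3 and Fcer1g rested on single mice. Without the third WT D7 mouse, the highest for both genes, the log2 fold changes were -0.43 and -0.40 and neither was called, and neither was called without the fourth WT D7 mouse or without the first or the second Trem2-/- D7 mouse. Conversely, Fcgr4 was called without the first WT D7 mouse (-0.62), Fcgr2b without the fourth WT D7 mouse (-0.56) and Fcgr1 without the fourth Trem2-/- D7 mouse (-0.54). The spread was unequal, since the Trem2-/- D7 mice ranged from 59.2 to 72.2 CPM for Fcgr3 and the WT D7 mice from 68.5 to 138.

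At D0 the means of all 5 genes were higher in Trem2-/- than in WT mice, by log2 fold changes from 0.16 for Fcgr2b to 0.39 for Fcgr4, and none was called (limma adjusted p = 0.99957 for each, smallest exact permutation p = 0.257). With edgeR or voom on the recovered reads 0 were called as well. Of all tested genes, 0.782% were called higher and 1.37% lower in this comparison, and 0.440% and 0.539% had groups without overlap. All 5 genes overlapped between genotypes at D0. The all-gene count rested on single mice, with 1231 genes called without the second WT D0 mouse and 107 without the fourth in place of 283, and 0 of the 5 genes were called with any mouse left out.

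The difference in the injury response between genotypes was tested as the interaction. It was negative for all 5 genes, and 3 passed the unadjusted rule, with Fcgr3 at -0.94 (SE 0.36, limma adjusted p = 0.579), Fcer1g at -0.91 (SE 0.36, adjusted p = 0.579) and Fcgr1 at -0.68 (SE 0.29, adjusted p = 0.596) on the log2 scale. Fcgr4 at -0.77 (SE 0.43) and Fcgr2b at -0.56 (SE 0.34) did not pass. Against the 3 of 5 stood 5.02% of all genes called lower and 2.77% called higher, and 0 of the 5 passed adjustment. Without 1 mouse the interaction of Fcgr1 was no longer called in 9 of 16 cases, that of Fcer1g in 4 (without WT D0 mouse 1 or 4, WT D7 mouse 3 or Trem2-/- D0 mouse 1) and that of Fcgr3 in 0. The interaction shares its groups with the comparisons above and is no separate evidence for them. Its sign for Fcgr3 and Fcer1g came from higher D0 and lower D7 means in Trem2-/- mice together.

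**Figure D3:**
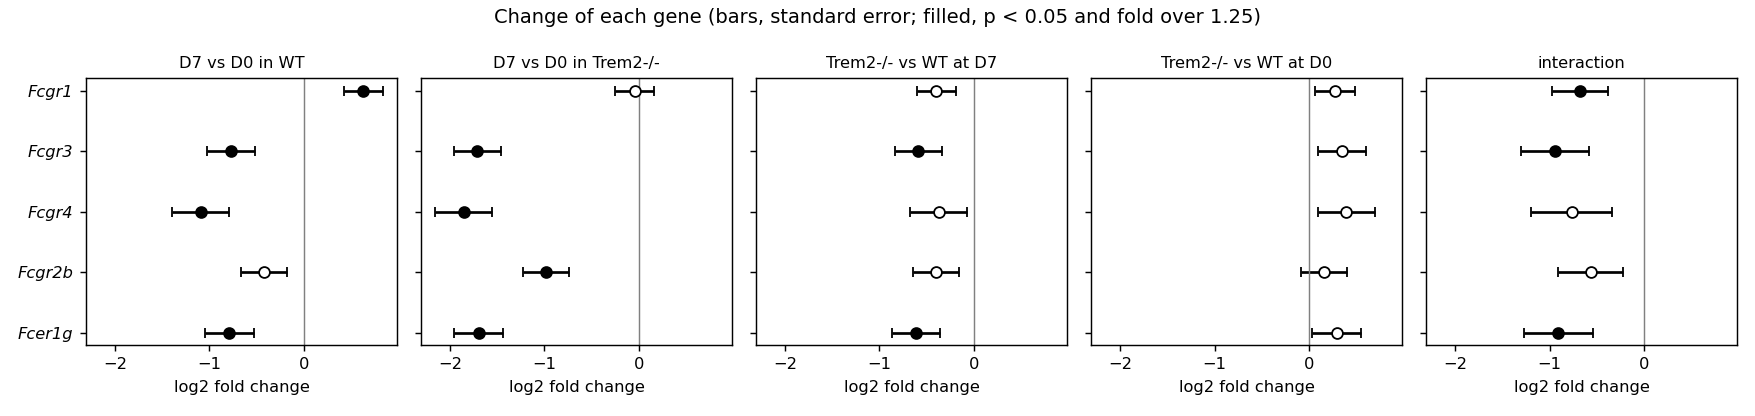
Log2 fold change (log2(CPM + 1) scale) with its standard error for the 5 genes in the 5 comparisons, filled where the gene was called. Fcgr1 is the gene to the right of 0 after injury in WT mice, and after injury in Trem2-/- mice the 4 filled points lie far left of 0, with the open point of Fcgr1 at -0.04.

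Ratios within a library do not depend on its scaling and are given as values with no test. Fcgr1 relative to Fcgr2b had a mean of 0.0685 ± 0.0230 at WT D0 and 0.152 ± 0.0152 at WT D7, and of 0.0739 ± 0.00524 and 0.149 ± 0.050 in Trem2-/- mice (SD, n = 4). The days did not overlap in either genotype. Relative to Fcgr2b, then, Fcgr1 stood higher at D7 in all mice of either genotype, although its CPM was called higher in WT mice and not in Trem2-/- mice. In Trem2-/- mice the higher ratio came with a fall of Fcgr2b, from a mean of 56.7 to 27.1 CPM. The mean of Fcgr1 was 4.16 CPM at D0 and 4.04 at D7 there. The part of Fcgr1 in the receptor transcripts per length was 1.01% at WT D0 and 3.00% at WT D7, and 0.977% and 3.13% in Trem2-/- mice.

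The balance of Fcgr3 to Fcgr2b, the most abundant activating to the inhibitory receptor, was 3.52 ± 0.222 at WT D0 and 4.01 ± 0.330 at Trem2-/- D0. At Trem2-/- D7 it was 2.43 ± 0.117, with 2.30 to 2.58 at D7 below 3.72 to 4.34 at D0. The 4 WT D7 mice differed widely among themselves, at 1.69, 2.06, 3.58 and 4.67, and covered both the uninjured and the Trem2-/- D7 values. The mouse at 4.67 had the lowest Fcgr2b of its group and also the lowest summed B cell and macrophage markers, 43.5 CPM over 5 B cell markers against 77.3 to 87.7 and 545 CPM over 8 macrophage markers against 682 to 735 in the other WT D7 mice. Its T cell (2.79 CPM), NK cell (6.53), mast cell (35.5) and dendritic cell (19.4) sums were the lowest of the group too. Its stromal sum (99456 CPM) was the highest, and its leukocyte, monocyte and neutrophil sums were not the lowest. The part of these cells in the ratio was not tested. For Fcgr4 to Fcgr2b the means were 0.449 and 0.293 in WT mice with overlap, and 0.530 and 0.261 in Trem2-/- mice without. No ratio separated the genotypes at D7.

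Fcer1g to Fcgr3 lay between 0.940 and 1.26 in all 16 mice, with no group apart from another. Relative to the sum of the 3 activating receptors, Fcer1g was between 0.839 and 1.09, a narrower range. Over the same mice the CPM of the chain varied 5.0-fold and that of Fcgr3 4.97-fold.

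**Figure D4:**
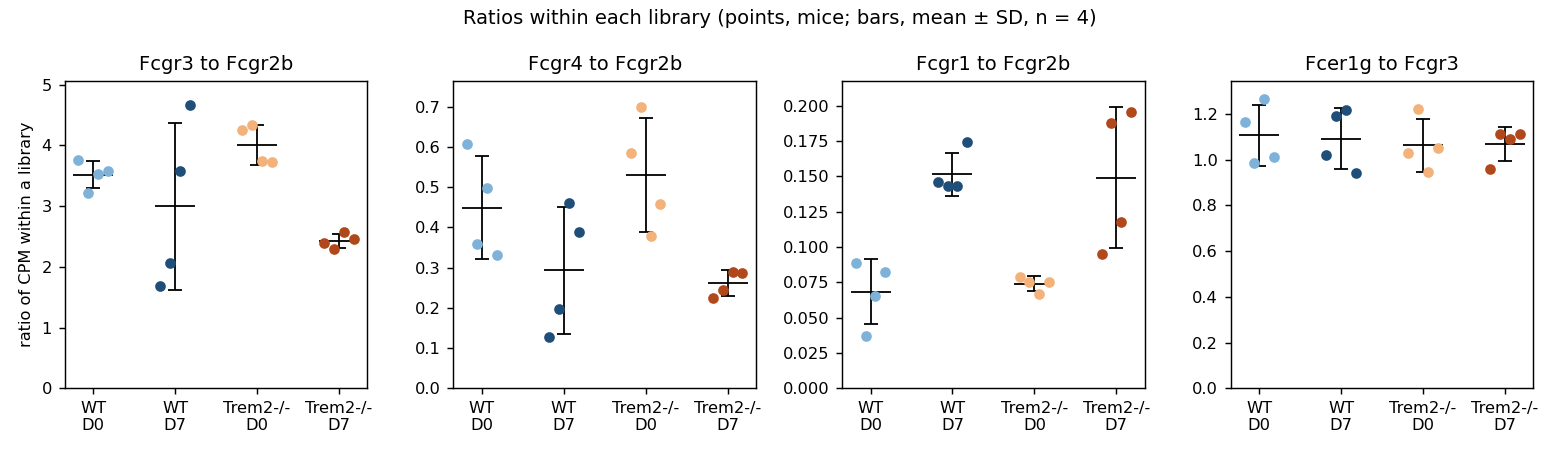
Ratios of CPM within each library, each panel on its own linear axis from 0, with points for mice and bars for the mean ± SD of 4. Fcgr1 to Fcgr2b is higher at D7 in both genotypes, the WT D7 mice spread from 1.69 to 4.67 for Fcgr3 to Fcgr2b, and Fcer1g to Fcgr3 stays near 1 in every group.

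Leukocyte and neutrophil markers were called lower where Fcgr3, Fcgr4 and Fcer1g were after injury, and macrophage markers moved differently. Of all tested genes, injury called 18.2% lower and 19.3% higher in WT mice, and 27.9% lower and 26.5% higher in Trem2-/- mice. Between genotypes at D7, 4.53% were called lower in Trem2-/- mice and 1.18% higher. The 5 leukocyte markers (Ptprc, Cd53, Coro1a, Laptm5 and Arhgdib) were called lower after injury in 5 of 5 cases in either genotype and in 4 of 5 cases in Trem2-/- against WT mice at D7. Their sum ranged from 2001 to 4213 CPM at WT D0, from 1223 to 2459 at WT D7, from 2553 to 4554 at Trem2-/- D0 and from 900.4 to 1108 at Trem2-/- D7. The 8 neutrophil markers were called lower after injury in 8 of 8 cases in both genotypes and in 0 of 8 between genotypes at D7. Their sum ranged from 14190 to 32632 CPM at WT D0, 4556 to 13944 at WT D7, 14452 to 43662 at Trem2-/- D0 and 4273 to 7232 at Trem2-/- D7. The 8 macrophage markers went the other way, with 6 of 8 called higher after injury in WT mice, 5 higher and 1 lower in Trem2-/- mice, and 3 of 8 lower in Trem2-/- than WT mice at D7. Their sum ranged from 249 to 405 CPM at WT D0, from 545 to 735 at WT D7, from 306 to 355 at Trem2-/- D0 and from 428 to 496 at Trem2-/- D7. Of the other lists, injury in WT mice called lower 5 of 5 B cell markers, 3 of 4 T cell markers, 3 of 3 NK cell markers tested, 2 of 5 dendritic cell markers, 1 of 5 mast cell markers and 1 of 3 monocyte markers, and 0 higher. For lists this short, the mast cell and monocyte counts were close to the 18.2% of all genes called lower. The sum of 6 stromal markers ranged from 9948 to 42713 CPM at WT D0, 64666 to 99456 at WT D7, 7538 to 16198 at Trem2-/- D0 and 71647 to 115177 at Trem2-/- D7. The part of any of these cells in the results was not tested.

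Levels were also set against the summed leukocyte markers of the same library. Per 1000 CPM of these markers Fcer1g had means of 61.9 at WT D0, 64.5 at WT D7, 64.2 at Trem2-/- D0 and 69.4 at Trem2-/- D7, and Fcgr3 had 56.1, 59.6, 60.9 and 65.1. Fcgr4 had 7.12, 5.67, 7.87 and 6.96. For these 3 genes the groups overlapped on this scale in each comparison of days and of genotypes. Fcgr1 had 1.09 and 3.40 in WT and 1.12 and 3.95 in Trem2-/- mice, the days without overlap in both genotypes. The mean leukocyte sum fell from 3178 to 1732 CPM in WT and from 3682 to 1016 CPM in Trem2-/- mice. A gene that fell less than this sum, or not at all, therefore rises on this scale. In Trem2-/- mice the mean CPM of Fcgr1 was 4.16 at D0 and 4.04 at D7. Fcgr2b had 16.0 and 22.8 in WT mice with overlap, and 15.3 and 26.8 in Trem2-/- mice without. Per 1000 CPM of the summed neutrophil markers, Fcer1g had 8.75 at WT D0 and 14.0 at WT D7, and Fcgr3 had 7.97 and 13.1, both higher at D7 without overlap. The Trem2-/- means were 8.95 and 13.2 for Fcer1g and 8.36 and 12.4 for Fcgr3, both with overlap, and Fcgr4 overlapped in either genotype. The neutrophil sum itself fell with injury without overlap in both genotypes.

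Set against the summed macrophage markers, Fcgr1 was the gene whose days overlapped. It had 9.99 and 8.16 per 1000 CPM of these markers at WT D0 and D7, and 12.6 and 8.44 at Trem2-/- D0 and D7. Fcgr3 had 546 and 157 in WT and 689 and 139 in Trem2-/- mice, and Fcgr3, Fcgr4, Fcgr2b and Fcer1g were all lower at D7 with no overlap. The macrophage sum itself rose with injury without overlap in both genotypes, so a gene of unchanged CPM falls on this scale. The lack of overlap is therefore no separate evidence of a fall of these genes. With group means removed, Pearson's r between Fcer1g and the leukocyte sum was 0.97, and r was 0.95 with the neutrophil sum and 0.31 with the macrophage sum. For Fcgr4 r was 0.92 with the sum of the 3 monocyte markers listed and 0.86 with the neutrophil sum. Most of that monocyte sum was Cd14, with a mean of 789 of 982 CPM at WT D0. With Retnlg, a single neutrophil marker of the list, r of Fcgr4 was 0.98. Retnlg is named because its r with Fcgr4 over the 16 libraries was the highest of 10551 genes searched. Its high r therefore follows from that choice and is no separate evidence for neutrophils. For Fcgr2b r was 0.88 with the sum of 4 NK cell markers and 0.44 with the B cell sum. With group means removed, the highest r of Fcgr1 with any of the 10 marker sums was 0.54, with the mast cell markers, and its r with the macrophage sum was 0.36. Over the 16 libraries without that step, the r of Fcgr1 with these 2 sums was 0.20 and 0.63. These values describe 16 libraries, each of which supplies both measures and its own scaling.

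**Figure D5:**
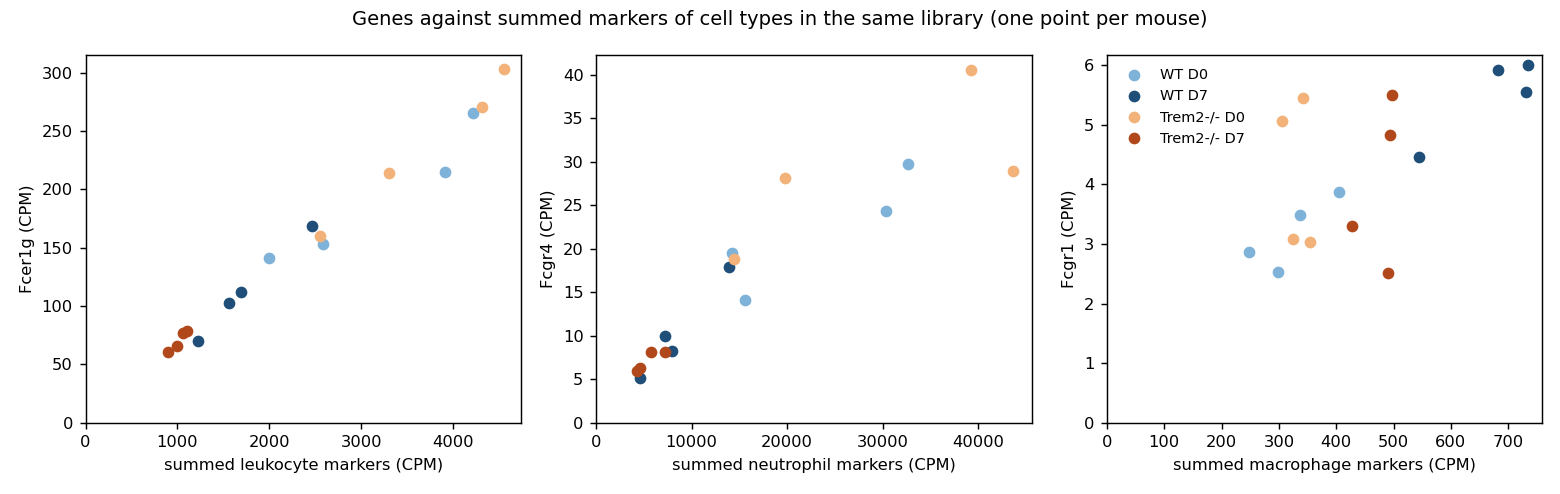
Fcer1g against summed leukocyte markers, Fcgr4 against summed neutrophil markers and Fcgr1 against summed macrophage markers (CPM, linear axes from 0), with a point for each mouse. Fcer1g rises with the leukocyte sum across all 4 groups, and the Trem2-/- D7 mice sit at the low end, whereas Fcgr1 spreads from 2.52 to 5.50 CPM in Trem2-/- D7 mice whose macrophage sums lie between 428 and 496.

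The genes closest to each receptor were found by Pearson's r of log2 values over the 16 libraries among 10551 genes or more with a mean of at least 5 CPM. For Fcer1g these were Cotl1, Lcp1 and Mcemp1 (r between 0.99 and 1.00, and between 0.97 and 0.98 with group means removed). For Fcgr3 they were Alas1, Nadk and Plbd1 (each r = 0.99), and for Fcgr4 they were Retnlg, Ifnar2 and Mcemp1 (between 0.99 and 0.98). For Fcgr2b they were Rad51ap1, Kcnab2 and B4galnt1 (between 0.98 and 0.97). Fcgr1 had weaker neighbours, which included Slfn9 and Ctss, with r of 0.77 and 0.75. Among the 5 genes, with group means removed, r was 0.94 between Fcgr4 and Fcer1g, 0.93 between Fcgr3 and Fcer1g, 0.82 between Fcgr3 and Fcgr4, and between 0.22 and 0.49 for Fcgr1 with each of the others.

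Most kinases and adaptors that act downstream of the activating receptors were called lower after injury. Of the 15 genes on this list 14 were tested, and 11 were called lower in WT mice (9 with adjustment) and 0 higher, against 18.2% and 19.3% of all tested genes. Injury of Trem2-/- mice called 13 lower (12 with adjustment), against 27.9% of all genes, and 1 higher, the kinase Fyn (log2 fold change 0.45), which was at 0.25 and not called in WT mice and is named after its values were seen. Btk, a kinase activated after Syk, had means of 40.5 CPM at WT D0 and 18.5 at WT D7 (log2 fold change -1.01, SE 0.22, limma adjusted p = 0.00488), and Pik3cd, a leukocyte PI3 kinase subunit, had 82.6 and 41.8 (-0.93, SE 0.24, limma adjusted p = 0.0118). In Trem2-/- against WT mice at D7, 10 of 14 were called lower and 0 higher, against 4.53% and 1.18% of all genes, with a list median of -0.68 against 0.01 over all tested genes, and 0 passed adjustment. Syk, the kinase that binds the activated chain, had means of 162 CPM in Trem2-/- and 283 in WT mice at D7 (-0.75, SE 0.21, limma adjusted p = 0.451). Dock2, a leukocyte activator of Rac, had 49.3 and 90.8 (-0.85, SE 0.24, adjusted p = 0.451). The interaction called 11 of 14 lower and 0 higher, against 5.02% and 2.77% of all genes, and 0 passed adjustment. The leukocyte markers above moved with this list.

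On the inhibitory side, 7 phosphatases, ligases and docking proteins were tested. After injury in WT mice 1 of 7 was called higher and 2 lower, against 19.3% and 18.2% of all genes. Dok1, an adaptor that restrains such signals, had means of 15.6 and 26.0 CPM at WT D0 and D7 (log2 fold change 0.70, SE 0.14, limma adjusted p = 0.00295), and Ptpn6, the phosphatase SHP-1, had 133 and 56.8 (-1.11, SE 0.32, limma adjusted p = 0.0203). Injury of Trem2-/- mice called 2 of 7 higher and 4 lower, against 26.5% and 27.9% of all genes. At D7, 2 of 7 were called lower in Trem2-/- mice, against 4.53%, namely Inpp5d, the phosphatase SHIP-1 (78.4 against 135 CPM, log2 fold change -0.74, SE 0.20, limma adjusted p = 0.451), and Ptpn6 (32.6 against 56.8 CPM, -0.79, SE 0.32, adjusted p = 0.620).

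Of 10 other receptors that signal through the shared chain, 6 were tested, and 4 were called lower after injury in WT mice (3 with adjustment, against 18.2% of all genes) and 5 in Trem2-/- mice (5 with adjustment, against 27.9%), with 0 higher. In WT mice Tarm1, an activating receptor of neutrophils, had means of 15.6 CPM at D0 and 7.68 at D7 (log2 fold change -0.93, SE 0.28, limma adjusted p = 0.0233), and Ms4a2, the beta chain of the IgE receptor of mast cells, had 1.65 and 0.457 (-0.78, SE 0.25, limma adjusted p = 0.0321). At D7, 2 of 6 were called lower in Trem2-/- mice, against 4.53% of all genes, Tarm1 (4.00 against 7.68 CPM, -0.76) and Clec4e, the receptor Mincle (187 against 320 CPM, -0.67). Neither passed adjustment.

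Among other Fc receptor genes 7 of 11 were tested, with 1 called higher and 5 lower by injury in WT mice, against 19.3% and 18.2% of all genes. Injury of Trem2-/- mice called 2 higher and 5 lower, against 26.5% and 27.9%. Fcrls, an Fc receptor-like gene best known from microglia, was the gene called higher in WT mice, with means of 2.50 CPM at WT D0 and 24.8 at WT D7 (log2 fold change 2.95, SE 0.29, limma adjusted p = 0.000141). Its means in Trem2-/- mice were 1.49 and 22.3 CPM. Fcrl1, a receptor of B cells, had 5.43 and 2.51 CPM in WT mice (-0.86, SE 0.18, limma adjusted p = 0.00424). At D7, 3 of 7 were called lower in Trem2-/- mice, against 4.53%, and 0 passed adjustment. They included Fcrl1 (1.26 against 2.51 CPM, -0.62) and Fcrla, a B cell gene (3.89 against 8.79 CPM, -0.95). The B cell markers were called lower in 5 of 5 cases in that comparison, and their sum was between 26.1 and 37.9 CPM at Trem2-/- D7 and between 43.5 and 87.7 at WT D7. Their part was not tested.

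Of a list of 13 genes for immunoglobulin chains and their joining chain, only Jchain could be analysed here. Its product joins IgM and IgA and is not part of IgG, so no gene of the IgG ligand was analysed. Jchain had means of 46.7 CPM at WT D0 and 7.36 at WT D7 (log2 fold change -2.33, SE 0.50, limma adjusted p = 0.00480) and of 18.9 and 5.85 in Trem2-/- mice. At D7 the genotypes differed by -0.27 (SE 0.50, limma adjusted p = 0.935). Of 11 genes for cytokine receptors and transcription factors known to act on Fc gamma receptor genes, 8 were called lower after injury in WT mice (4 with adjustment, against 18.2% of all genes) and 9 in Trem2-/- mice (9 with adjustment, against 27.9%), with 0 higher. Irf8, a factor of myeloid and B cells, had means of 66.1 and 34.4 CPM at WT D0 and D7 (-0.92, SE 0.15, limma adjusted p = 0.00127), and Ifngr1, an interferon gamma receptor chain, had 151 and 98.9 (-0.60, SE 0.12, limma adjusted p = 0.00259). At D7, 3 of 11 were called lower in Trem2-/- mice (0 with adjustment, against 4.53%), including Il10ra, an IL-10 receptor chain (31.8 against 50.2 CPM, -0.63), and Stat6 was at -0.28 and was not called.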

How the data were processed

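The RNA of knee joints of 16 mice was analysed. The authors used STAR (mm10) for alignment and featureCounts for gene counts, and deposited TMM-normalized CPM from edgeR, a signal scaled to each library's effective size. Versions, annotation and strand setting were not given in the sources used here. Of the deposited values 100% were whole multiples of 1 read (tolerance 0.1 read), so reads were recovered for the count-based alternatives.

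The members and gene lists were chosen with earlier results of these data known. Values were compared as log2(value + 1) with limma 3.58.1 (lmFit, eBayes with trend; R 4.3.3) over the 13173 genes that reached 1 CPM in 4 or more of the 16 libraries, with the 4 groups as a single factor and Benjamini-Hochberg adjustment over all of them. Log2 fold changes on this scale understate changes of low genes such as Fcgr1. Each single gene was also compared by an exact two-sided permutation test (70 assignments, smallest p 0.0286). The labels say nothing of litters or batches. All 5 genes were named with all values. Of each list, the 2 genes with the smallest p after injury in WT and between genotypes at D7 were named, and for each of the 5 genes those closest to it by correlation, of which 1 is not reported here. The alternatives were pseudocounts of 0.1 and 5, no filter, a mean of at least 5, quantile and median-of-ratios scaling, only the groups compared, no trend, a replicate block, each mouse left out, edgeR 4.0.16 and voom on recovered reads, a fold change over 1.5 and an adjusted p under 0.05. Read-based limits cover counting error only. The limma comparison of genotypes at D7 was checked on simulated counts that gave every gene the same dispersion. That check does not cover unequal spread between groups or a large part of genes moved by injury. Replicates of a group differed by more than sampling noise.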

Additional observations from a re-analysis of the deposited data

Results flagged for a closer look

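Among 48 groups of values tested for a mouse that stands apart (by Dixon's ratio of gap to range), 3 were found, and chance gives about 1 in 20. For Fcgr1 to Fcgr2b in WT D7 mice, the fourth mouse was at 0.174 and the others at 0.143 to 0.146 (gap over range 0.907). For Fcer1g to Fcgr3 in Trem2-/- D7 mice, the first was at 0.959 and the others at 1.09 to 1.11 (0.866). For Fcer1g to the sum of the activating receptors it was at 0.846 against 0.931 to 0.943 (0.873).

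The effect of injury differed between Trem2-/- and WT mice by the unadjusted interaction test in limma for Fcgr1 (-0.68), Fcgr3 (-0.94) and Fcer1g (-0.91) on the log2 scale, and 0 of these passed adjustment over all genes.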

How the results depend on the processing

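The counts of called genes after injury stayed at 4 of 5 in WT and 4 in Trem2-/- mice under every alternative run, except 3 in WT mice with a mean of at least 5 CPM, where Fcgr1 was not tested, and 4 to 5 in WT mice when single mice were left out (4 to 4 in Trem2-/-). Between genotypes at D7 the count was 0 with an adjusted p under 0.05 in place of 2, 3 with only the groups compared (Fcgr2b added) or voom (Fcgr1 added), and 0 to 3 when single mice were left out. It was 0 without WT D7 mouse 3, Trem2-/- D7 mouse 1 or Trem2-/- D7 mouse 2. At D0 it was 0 throughout (0 to 0). The interaction count was 0 with adjustment in place of 3, 2 with quantile normalization or a mean of at least 5 CPM, and 1 to 4 when single mice were left out, and it was not run with only the groups compared, since it uses all 4. It was 1 (Fcgr3) without WT D0 mouse 1, WT D7 mouse 3 or Trem2-/- D0 mouse 1. Signs turned for Fcgr1 after injury in Trem2-/- mice without D0 mouse 1 (0.076), D0 mouse 3 (0.047), D7 mouse 1 (0.12) or D7 mouse 3 (0.020), over a range of -0.18 to 0.12, and for Fcgr2b between genotypes at D0 without WT mouse 1 (-0.029, over a range of -0.029 to 0.32). Deviations of same-numbered mice of different groups had a median r of 0.07 (24 pairs, range -0.51 to 0.41). For other numbers the median r was -0.01 (72 pairs, range -0.63 to 0.71). Of 16 mice, 7 correlated best with a mouse of their own number. These values do not settle whether the numbers pair the mice. The replicate block gave 4, 4, 2 and 0 calls and 2 for the interaction, without Fcgr1. Over all genes, 79.3% of the calls between genotypes at D7 were lower in Trem2-/-, against 66.7% with quantile normalization and 65.5% with only the groups compared, which called 1366 genes in place of 753. At D0 the share was 63.6% of 283 calls, against 76.6% of 466 with edgeR. With single mice left out at D0 it was 33.8% of 441 without WT mouse 1, 71.7% of 1231 without WT mouse 2, 65.4% of 442 without WT mouse 3, 56.1% of 107 without WT mouse 4, 38.5% of 239 without Trem2-/- mouse 3, 44.6% of 542 without Trem2-/- mouse 4 and 49.0% of 353 without Trem2-/- mouse 1, so that neither the count nor the direction over all genes was stable there. At D7 it was 480 genes without WT mouse 3, and for the interaction 2236 in place of 1026 without WT D0 mouse 2 and 609 without WT D0 mouse 4. The causes were not tested. With 4 mice a group, no exact p falls below 0.0286.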
